A study of Mus musculus with 6 samples.

Results

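The small heat shock proteins of muscle described here are Cryab (alphaB-crystallin), Hspb1, Hspb2, Hspb3, Hspb7 and Hspb8, 6 genes of the 18194 that the arrays read through probe sets paired with a single gene. They were chosen by symbol, as members of the family known to act in muscle and with earlier results of these data known. They are not the whole family. Hspb6, which read above the median of every array, is described apart, with day 4 minus growth medium at -1.31. Every probe set that the platform annotation pairs with exactly 1 of the 6 was used, 13 in all. The samples are 6 cultures of C2C12, a mouse myoblast line that stops dividing and forms myotubes when serum is lowered. Parental cells were taken in growth medium with 10% fetal bovine serum and at days 0, 2 and 4 after confluent cultures were moved to medium with 2% horse serum, day 0 being just after the change. A stable line with a short hairpin RNA against Rp58 (shRp58), a zinc finger repressor whose current symbol is Zbtb18, and a stable control line were both taken at day 0. Both stable lines were transfected with Lipofectamine and selected in G418 at 500 ug/ml for 2 weeks, and the labels call the control a LacZ vector in one place and a control hairpin in another. The labels do not say whether a stable line is a pool or a single clone. Each group was measured on 1 Affymetrix array, so no difference below has a replicate error or a test.

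Small heat shock proteins hold unfolding proteins in a soluble state without using ATP, and pass them on to ATP-driven chaperones such as Hspa8 for refolding or to autophagy for removal. They share a conserved alpha-crystallin domain and assemble into oligomers of one or several family members. In muscle they sit on desmin filaments, Z-discs and titin, and inherited changes in several of them cause myopathy or motor neuropathy in people. Hspb2 and Hspb3 form a complex with each other that is laid down during muscle differentiation, and Hspb8 works with the co-chaperone Bag3.

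Promoter sequences of the members are shown first, because the members did not follow a single course and the sequences let the courses be set beside the letters near each start site. RefSeq's promoter table for GRCm38.p6, with windows from 250 bases before to 50 bases after an annotated start, held 4 of the 6 members (Hspb1, Hspb3, Hspb7 and Hspb8); Cryab and Hspb2 were not matched. Capitals mark matches, on either strand, to the heat shock element core GAANNTTC, the RP58 core CATCTG, the E-box CAGCTG, the TATA box TATAAA, and a MEF2-like motif of CTA and TAG with 4 bases between them. For Hspb1, Hspb3 and Hspb7 the 250 bases before the start are printed, and for Hspb8 a stretch of 30 bases around it, 5′ to 3′ on the gene's strand.
Hspb1, chr5:135887669-135887918, plus strand: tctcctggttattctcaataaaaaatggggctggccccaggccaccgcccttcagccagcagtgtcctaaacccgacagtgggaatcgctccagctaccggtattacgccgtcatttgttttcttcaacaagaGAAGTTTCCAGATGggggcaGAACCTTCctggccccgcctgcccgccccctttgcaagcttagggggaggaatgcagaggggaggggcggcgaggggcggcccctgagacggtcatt
Hspb3, chr13:113663677-113663926, minus strand: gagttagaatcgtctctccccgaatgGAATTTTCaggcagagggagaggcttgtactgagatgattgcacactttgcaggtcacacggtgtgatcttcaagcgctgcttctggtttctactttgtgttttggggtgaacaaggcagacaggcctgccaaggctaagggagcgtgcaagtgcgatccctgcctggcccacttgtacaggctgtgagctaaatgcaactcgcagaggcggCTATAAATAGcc
Hspb7, chr4:141420529-141420778, plus strand: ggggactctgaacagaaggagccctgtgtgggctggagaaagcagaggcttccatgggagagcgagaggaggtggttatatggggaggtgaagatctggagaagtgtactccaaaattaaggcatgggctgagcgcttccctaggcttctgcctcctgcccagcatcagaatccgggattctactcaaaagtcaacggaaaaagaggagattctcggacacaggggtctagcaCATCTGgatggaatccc
Hspb8, chr5:116422845-116422874, minus strand: cagaagccaggaGAAGTTTCtaggctcgcg

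The heat shock element core, the inverted repeat that heat shock factors bind, was found in the windows of 3 of the 4 members, Hspb1, Hspb3 and Hspb8, and in 7.86% of all 32851 promoter windows of the table. Hspb1 held it at 117 and at 97 bases before the start, Hspb3 at 224 bases before it and Hspb8 at base 3 of the transcript. The RP58 core lay in 2 of the 4, against 17.2% of all windows: 17 bases before the start of Hspb7, and 109 bases before that of Hspb1, there on the opposite strand as CAGATG. These 2 matches are also E-boxes of the general form CANNTG, which all 4 members held and which 72.3% of windows held. The MEF2-like motif was matched in Hspb3, 12 bases before the start and overlapping a match to TATAAA, and in 3.69% of all windows, while TATAAA was in 13.6%. CAGCTG, in 16.3% of windows, was in none of the 4. A match describes the letters in these windows and is not a measurement of binding.

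The culture carried the muscle identity its label gives. Of 9 muscle line markers, all read above the median of their array on 5 arrays, and 8 did in growth medium. All 4 leukocyte and endothelial markers read below that median on every array, and at most 1 of 3 osteoblast, 1 of 3 adipocyte and 1 of 4 heart markers lay above it. Smooth muscle markers had 2 or 3 of 4 above it. Acta2 (14.0 to 14.6 in the time course) and Tagln (10.6 to 12.5) were above it throughout. Cnn1 was above it only in growth medium, and Myh11 was below it throughout. Zbtb18, the targeted gene, was at 11.69 in the control line and 11.16 in the shRp58 line (-0.53), lower as the label says but by less than 2-fold. Array medians ranged from 8.26 to 8.27 in the time course but were 7.15 in both stable lines, so values are compared within the time course or within the stable pair and never between them.

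Over the whole time course 5 of the 6 small heat shock protein genes ended at least 2-fold above growth medium, and Hspb1 did not. The count was 4 after quantile normalization (Cryab 0.998) and with the mean over probe sets (Cryab 0.73). Among 13242 genes that reached the median of all values, 7.95, on at least 1 array (called kept genes below), 8.09% were at least 2-fold higher and 5.33% at least 2-fold lower between the same arrays. Day 4 minus growth medium was 3.84 for Hspb7 (14.3-fold), 3.0 for Hspb2 (8.0-fold), 2.12 for Hspb3 (4.36-fold), 1.72 for Hspb8 (3.29-fold) and 1.13 for Cryab (2.19-fold), and it was -0.20 for Hspb1. The other Hspb7 probe sets gave 2.41 and 2.19, below the Hspb2 value, so the order of Hspb7 and Hspb2 depends on the probe set. The median of the 6 was 1.92, beside -0.01 over all kept genes. Hspb3 was a kept gene only through day 2 and day 4, so it had to end above growth medium by some amount. In 4 of these 5 the step from day 0 to day 2 held over 50% of the difference, and Hspb2 had no such step. These are bulk cultures, in which fewer cells of a type and less RNA per cell cannot be told apart.

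**Figure D1:**
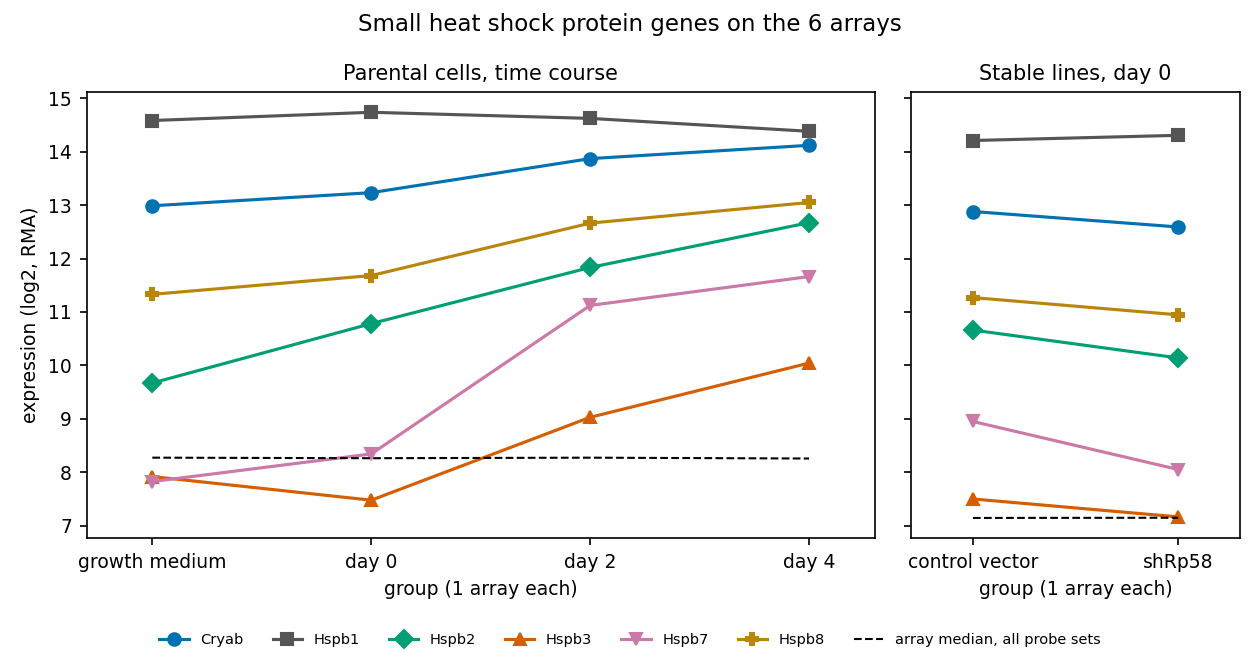
Expression (log2, RMA) of the probe set that stands for each of the 6 genes in growth medium and at days 0, 2 and 4 (left) and in the 2 stable lines at day 0 (right), 1 array per point; the dashed line is the median of all probe sets on each array. Hspb2 is higher at every step, Hspb7 takes most of its difference between day 0 and day 2, Hspb3 crosses the array median only after day 0, and Hspb1 stays between 14.38 and 14.74 in the time course.

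Hspb1, the small heat shock protein that stabilises actin and intermediate filaments, read 14.58, 14.74, 14.62 and 14.38 in growth medium and on days 0, 2 and 4 (log2). It was highest at day 0 and lowest at day 4, over a range of 0.36. Its second probe set read 14.45, 14.55, 14.46 and 14.22 on the same arrays, in the same order; it carries the suffix that Affymetrix gives to sets whose probes may also match other sequences. Day 4 minus day 0 was -0.36, and 24.5% of kept genes lay at or below this value. The signs of its smaller steps depended on the scaling: day 0 minus growth medium was 0.15 as deposited and -0.05 after cyclic loess normalization, and day 2 minus day 0 was -0.11 and 0.0033. The highest value of any probe set was between 14.92 and 15.09 on these 4 arrays, so Hspb1 was read near the top of the scale; whether differences are compressed there was not tested.

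Cryab, which binds desmin and titin in striated muscle, read 12.99, 13.23, 13.87 and 14.12 in growth medium and on days 0, 2 and 4. Each array of the series in time was above the one before it, and the step from day 0 to day 2 (0.64) held 56.3% of the whole difference of 1.13. A second probe set read 12.61, 12.72, 13.43 and 13.75, which made day 4 minus day 0 equal to 1.03 there, against 0.89 for the brighter probe set. Cryab therefore lay just under 2-fold by one probe set and just over it by the other. The third probe set, which the annotation lists with no accession, read between 4.84 and 5.0 on the time course, more than 3 log2 units below the array medians, and did not follow the other 2.

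Hspb2, which binds and activates the myotonic dystrophy kinase, read 9.67, 10.78, 11.83 and 12.67 in growth medium and on days 0, 2 and 4. No other member passed 2-fold between growth medium and day 0 (1.11 for Hspb2), where 2.91% of kept genes were 2-fold higher and 0.317% lower. Of the genes 2-fold apart at this step 90.2% were higher, and 79.5% after quantile normalization. The Hspb2 step was 0.92 after quantile normalization and 0.93 after cyclic loess, both short of 2-fold. Its 3 steps were nearly equal, at 1.11, 1.05 and 0.84, or 37.0%, 35.0% and 27.9% of the whole. Only 1 probe set reads Hspb2. In the RefSeq gene table its span lies inside that of Cryab on the same chromosome, and where the probes of either gene lie in the shared stretch was not analysed here.

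Hspb3, the partner of Hspb2, read 7.92, 7.48, 9.03 and 10.04 in growth medium and on days 0, 2 and 4. The first 2 values were below the medians of their arrays and the last 2 above, so differences from the earlier arrays rest on dim readings. Hspb3 reached the filter for kept genes only on days 2 and 4. It therefore had to read higher there than in growth medium and at day 0, by some amount. The step from day 2 to day 4 lies between arrays that both pass the filter and is not fixed in this way. Day 0 minus growth medium was -0.44, day 2 minus day 0 was 1.55 (2.93-fold) and day 4 minus day 2 was 1.01 (2.02-fold). Hspb3 was the only member past 2-fold between day 2 and day 4, a step at which 0.808% of kept genes were 2-fold higher and 0.808% lower. For its complex partner Hspb2, day 0 minus growth medium was 1.11 as deposited and 0.92 after quantile normalization, beside -0.44 for Hspb3. Both Hspb3 readings at this step lay below their array medians, and whether the partners differ in timing was not tested.

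Hspb7, a cardiovascular small heat shock protein that binds filamin C, read 7.83, 8.34, 11.12 and 11.66 in growth medium and on days 0, 2 and 4. Growth medium lay below its array's median and day 0 barely above it, and both later arrays were far higher. Day 2 minus day 0 was 2.78 (6.86-fold), 72.5% of the whole difference, and 99.8% of kept genes lay at or below it. Its other probe sets read 8.45, 8.24, 10.24 and 10.86, and 6.59, 6.50, 7.31 and 8.78. The 3 probe sets placed day 4 above day 0 by 2.28 to 3.32, but differed on the first step, which was 0.52 on the brightest and -0.21 and -0.09 on the others. The dimmest of them read below its array's median until day 4 and put more of the difference into the last step (1.47) than into the one before it (0.81).

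Hspb8, which pairs with Bag3 in clearing damaged filamin, read 11.33, 11.68, 12.66 and 13.05 in growth medium and on days 0, 2 and 4. Day 4 minus day 0 was 1.37 (2.58-fold), and 1.35 on the second probe set, which read 10.09, 10.82, 11.61 and 12.17. The third probe set read 9.89, 10.03, 10.09 and 10.42, giving 0.39, so that day 4 minus growth medium ran from 0.53 to 2.08 over the 3. It carries the same suffix as the second Hspb1 probe set. Day 2 minus day 0 was 0.98 on the brightest probe set, 0.79 and 0.06 on the others, and passed 2-fold after quantile (1.07) and cyclic loess (1.09) normalization.

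Counted by step, members at least 2-fold higher numbered 1 of 6 at day 0 against growth medium (Hspb2), 3 at day 2 against day 0 (Hspb2, Hspb3 and Hspb7), 1 at day 4 against day 2 (Hspb3) and 4 at day 4 against day 0 (these and Hspb8). No member was 2-fold lower at any of them. Hspb3 was a kept gene only through day 2 and day 4, so it could not have read lower there than at day 0. Between day 0 and day 2, 2.67% of kept genes were 2-fold higher and 2.96% lower, and between day 0 and day 4, 3.83% and 5.66%. Of the 13 probe sets 8 were 2-fold higher at day 4 than at day 0 and 0 lower. These take in all 3 Hspb7 probe sets and both brighter Hspb8 ones, so they are repeat readings of fewer genes. The share over all probe sets of the array was not computed. The steps share arrays with each other, so their values are not independent.

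**Figure D2:**
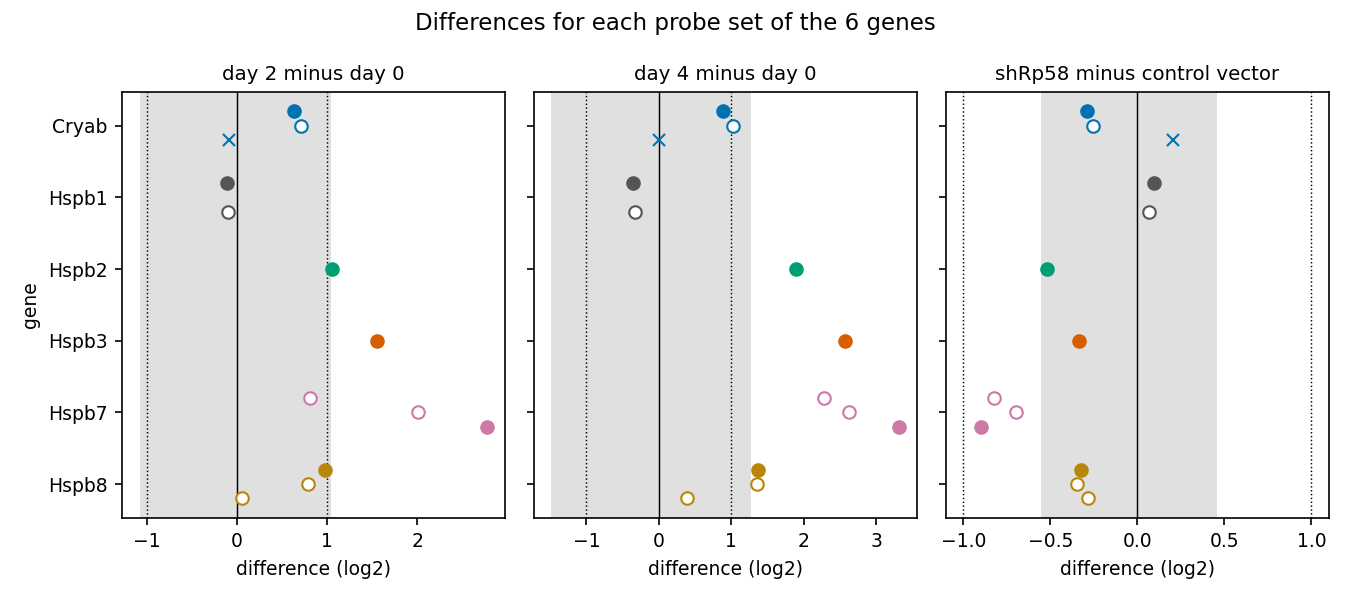
Differences (log2) for the 13 probe sets of the 6 genes between day 2 and day 0, day 4 and day 0, and shRp58 and control vector; filled points are the probe sets that stand for a gene, open points the others, the cross is a Cryab probe set below the median of every array, the grey band holds the central 95% of kept genes and dotted lines mark 2-fold. All 3 Hspb7 probe sets lie from 2.28 to 3.32 at day 4 and from -0.90 to -0.70 with shRp58, whereas both Hspb1 probe sets lie within 0.36 of 0 in each panel.

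The hairpin comparison asks how the members stood when Rp58 was targeted at day 0. Of the 6 genes 5 read lower with shRp58 than with the control vector, where 51.3% of kept genes did, and 0 were 2-fold apart. Among kept genes 0.619% were at least 2-fold lower and 0.0529% higher. Hspb7 was at 8.95 in the control line and 8.05 in the shRp58 line (-0.90, or 1.86-fold lower). Its other probe sets gave -0.82 and -0.70, and 0.846% of kept genes lay at or below the value of the brightest.

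Hspb2 read 10.66 and 10.14 (-0.52, 1.44-fold lower), and 2.79% of kept genes lay at or below this difference. Hspb3 read 7.5 and 7.17 (-0.33), which is 0.35 and 0.016 above the medians of those arrays. Hspb8 read 11.27 and 10.95 (-0.32), and Cryab read 12.88 and 12.59 (-0.29). The 3 Hspb8 probe sets lay between -0.34 and -0.28, closer together than in the time course. Hspb1 read 14.21 and 14.30 (0.10), and 0.07 higher on its second probe set. The bright Cryab probe sets gave -0.29 and -0.26, while the one below every array median gave 0.21. The robust standard deviation of this difference over kept genes, a scaled median absolute deviation, was 0.17, a measure of scatter among genes that gives no error for any single gene.

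Set beside the time course, which shares no array with the stable pair, the member with the largest difference at day 4 against day 0 (Hspb7, 3.32) had the lowest with shRp58, and the member below 0 at day 4 (Hspb1, -0.36) was the only one above 0 with shRp58. Among kept genes, 470 of the 507 that were 2-fold higher at day 4 than at day 0 read below 0 with shRp58 (median -0.49), and 666 of the 750 that were 2-fold lower read above 0 (median 0.32). Hspb3 departed from the order of the members, with the second largest difference at day 4 (2.57) and -0.33 with shRp58. The dimmest Hspb7 probe set gave 2.28 at day 4 against day 0, below that of Hspb3. On their brightest probe sets all 9 muscle line markers also read lower with shRp58, where 51.3% of kept genes did. At least 2-fold lower were 3 of them, the embryonic myosin Myh3 (-1.30), the creatine kinase Ckm (-1.27) and the troponin Tnnc2 (-1.07), whereas Des differed by -0.27 and Myod1 by -0.13. Other probe sets gave 0.11 for Ckm, 0.11 for Myod1 and 0.02 for Des. The summed linear value of the 9 markers was 75195 in the control line and 46661 with shRp58. In the time course this sum ran from 27061 in growth medium to 151590 at day 4. The part of these shifts in the values of the small heat shock proteins was not tested.

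**Figure D3:**
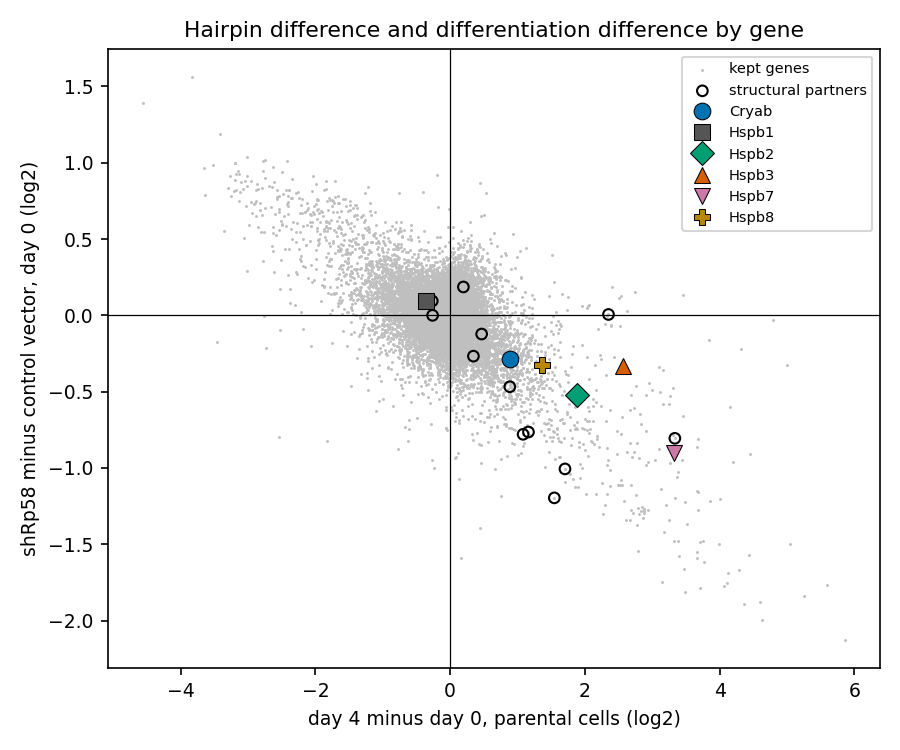
Difference between shRp58 and control vector at day 0 (vertical, log2) against day 4 minus day 0 in parental cells (horizontal, log2); grey dots are the 13242 kept genes, open circles 12 structural partners and coloured symbols the 6 members. Hspb7 lies lowest and furthest right of the members, at -0.90 and 3.32, and Hspb1 is the only member on the upper left, at 0.10 and -0.36.

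Of the other small heat shock protein genes, Hspb6 (Hsp20) read 11.11, 10.83, 9.96 and 9.80 in growth medium and on days 0, 2 and 4, so that day 4 minus day 0 was -1.03. With shRp58 it read 9.89 against 9.76 (0.13). Of the 4 smooth muscle markers, day 4 minus growth medium was -1.92 for Cnn1, -0.84 for Tagln, 0.05 for Myh11 and 0.33 for Acta2, whose other probe sets reached 1.84. Tagln was 1.10 higher at day 4 than at day 0, and any link between smooth muscle genes and the Hspb6 values was not tested. Cryaa, the lens partner of Cryab, Odf1, a sperm tail protein, and Hspb11, a ciliary transport protein, all stayed within 0.49 of growth medium at day 4, and Hspb9, a testis protein, did not reach 7.95 on any array. Of the 4 kept genes of this list 1, Hspb6 (-1.31), ended 2-fold below growth medium and 0 above it, beside 5.33% and 8.09% of kept genes.

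Chaperones outside the small heat shock family mostly stayed within 2-fold, as most kept genes did. Among kept genes 8.09% were 2-fold higher and 5.33% lower at day 4 against growth medium. Of 17 kept heat-shock-induced and cytosolic chaperones and co-chaperones 0 were 2-fold apart on their brightest probe sets in any of the 6 comparisons, and their median at day 4 against growth medium was -0.28, beside -0.01 over all kept genes. Hspa8, the constitutive Hsp70, differed by 0.05 there, Hsp90aa1 by -0.07, the inducible Hspa1b by -0.88 and its co-chaperone Dnajb1 by -0.67; other probe sets went down to -1.17 for Hspa8 and -1.11 for Hspa1b, past 2-fold. Hspa1a, a near-identical copy of Hspa1b, differed by 0.10, and how far their probe sets share transcripts was not analysed here. Among 12 mitochondrial and endoplasmic reticulum chaperones the median was 0.15, with the mitochondrial pair Hspd1 (-0.91) and Hspe1 (-0.93) lowest and Dnajb9 (1.51), a target of the unfolded protein response, the only one past 2-fold. Of the heat shock factors only Hsf4 was kept, at 0.38, and it read below the array median on all 6 arrays. Hsf2 was below the filter, and Hsf1 and Hsf3 were not analysed here.

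Co-chaperones and autophagy genes ranged from -0.20 to 6.67 at day 4 against growth medium. Bag3 differed by -0.02 between day 4 and growth medium and its ubiquitin ligase Stub1 by -0.20, while Synpo2, the Z-disc adaptor that links Bag3 to autophagosome formation, was 3.15 higher and the myosin chaperone Unc45b 6.67 higher, from a level below the array median in growth medium. The autophagosome protein Map1lc3a was 2.13 and Bag1 1.13 higher, so that 4 of 12 genes in this list passed 2-fold upward and 0 downward (median 0.54). Among kept genes 8.09% passed it upward and 5.33% downward between the same arrays. Genes between these included Bag2 (0.32), Dnajb2 (0.71) and Map1lc3b (0.85). Synpo2 has 4 probe sets, which ran from 0.03 to 3.15. With shRp58 Unc45b stood at -1.48 and Synpo2 at -0.93, and 11 of the 12 lay below 0, where 51.3% of kept genes did.

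Of 12 structural partners of the small heat shock proteins 7 passed 2-fold upward between growth medium and day 4, and 0 downward: Actc1 (3.74), Acta1 (3.72), Actn2 (3.62), Ldb3 (3.61), Ttn (3.30), Myot (2.18) and Flnc (1.20). The shares of kept genes were 8.09% upward and 5.33% downward. Myot passed the filter only through day 4 (8.09) and had to differ; without it, an alternative chosen after the values were seen, 6 of 11 passed and the median was 1.20 in place of 1.69. Desmin (Des), the filament protein to which Cryab binds, was 0.93 higher on its brightest probe set and -0.16 on the other, and vimentin (Vim) differed by -0.17. At day 0 Actc1 (2.66), Acta1 (2.55), Ldb3 (1.90) and Ttn (1.76) were past 2-fold against growth medium, whereas Actn2 (0.28), Flnc (0.32), Fhl1 (-0.0010) and Myot (-0.17) were not; Hspb2 was at 1.11 and the other members between -0.44 and 0.52. Flnc, the filamin cleared through Bag3 and Hspb8, read 12.17, 12.49, 13.02 and 13.37 over the time course. With shRp58 the median of the 12 was -0.37, and Ttn (-1.20) and Ldb3 (-1.01) were 2-fold lower. Over all probe sets Ttn ran from -1.30 to 0.09 there, and Ldb3 from -1.02 to -0.81. At day 4 against growth medium the probe sets of Ttn ran from 0.84 to 3.63. Among 8 regulators of muscle gene expression 6 passed 2-fold upward and 1, Myf5 (-1.18), downward by day 4 (median 1.42). With shRp58 their median was -0.41, with Mef2c (-1.16, and up to -0.73 on other probe sets) 2-fold lower. The 8 include Zbtb18 (-0.53), the target of the hairpin, so its lower value enters this median by design.

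**Figure D4:**
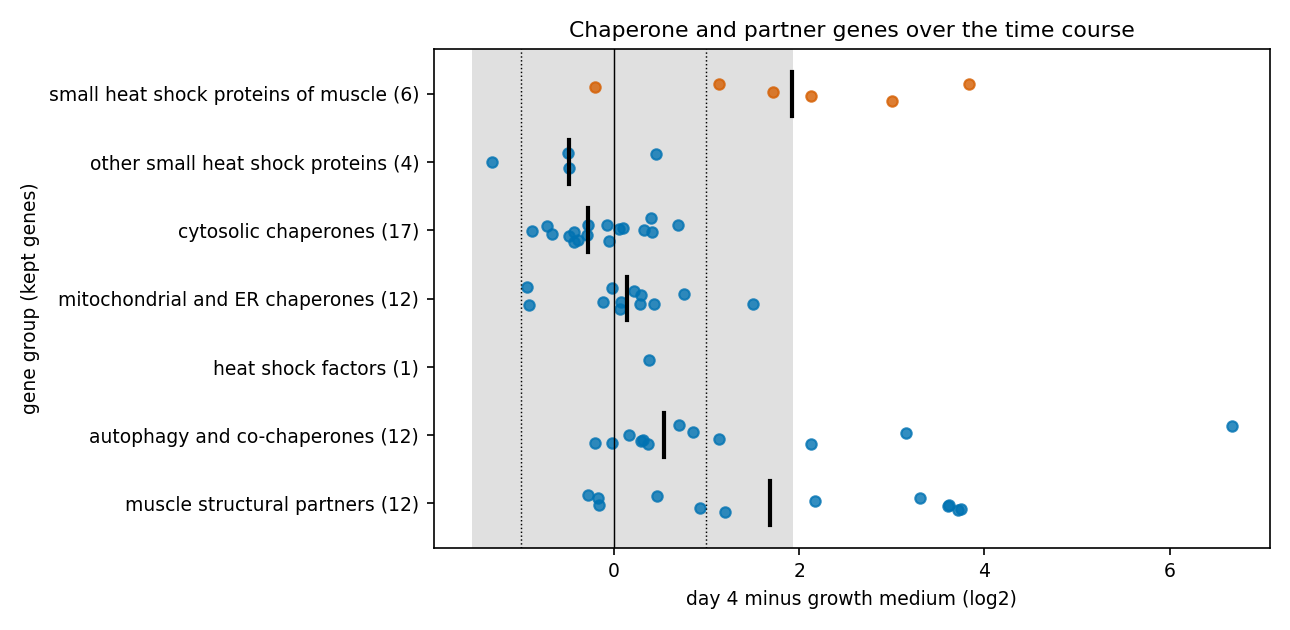
Day 4 minus growth medium (log2) for the kept genes of each group, with the number of genes in brackets; black bars are medians, the grey band holds the central 95% of kept genes and dotted lines mark 2-fold. The 6 members have a median of 1.92 and the structural partners 1.69. The 17 heat-shock-induced and cytosolic chaperones, labelled cytosolic for short, lie between -0.88 and 0.69.

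Genes with the most similar course were found by the Euclidean distance between log2 profiles over the 4 time-course arrays, each centred on its own mean. For Hspb2 the nearest was Smyd1, a muscle methyltransferase that acts with myosin chaperones, at a distance of 0.044, followed by the thin filament cap Tmod1 (0.16) and Msln (0.20). For Hspb7 they were the titin-binding ankyrin repeat protein Ankrd2 (0.24), Tekt5 (0.25) and the fast myosin-binding protein Mybpc2 (0.28). For Hspb3 they were 5730419F03Rik (0.14), Rbm38 (0.20) and Filip1 (0.21), and for Hspb8 Cmklr1 (0.093), Tm2d1 (0.10) and Nfe2l1 (0.11). Cryab lay nearest to Ttc39b (0.036), Eya4 (0.069) and Aspa (0.072), and the nearly level Hspb1 to Usp54 (0.0115), Aph1b (0.016) and Alg10b (0.0205). Small distances are easier to reach for profiles that vary little, so these distances are not compared between members.

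Between members the same distance ran from 0.48 (Cryab and Hspb8) to 3.52 (Hspb1, which varied least, and Hspb7, which varied most), and it too depends on how much a profile varies. Hspb2 and Hspb3 lay 1.12 apart, and Cryab and Hspb2, whose gene spans overlap, 1.36 apart. On their brightest probe sets Cryab had 21.7%, 56.3% and 22.0% of its difference in the 3 steps and Hspb8 20.5%, 57.1% and 22.5%. The likeness did not hold throughout: the second Hspb8 probe set had steps of 0.73, 0.79 and 0.56 and the third 0.14, 0.06 and 0.33, and after cyclic loess the first step was 0.036 of 1.03 in Cryab and 0.15 of 1.64 in Hspb8.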

How the data were processed

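RNA of 6 C2C12 cultures, 1 array a group, was measured on Affymetrix mouse arrays with 10 ug of cRNA, per the series' design text. The deposited values are log2 expression per probe set, computed by the authors with RMA, per the same text; the log2 scale was read from the values. Whether the arrays were processed in a single run, and with what software, is not given in the sources used here. Probe sets were named where the platform annotation gave 1 gene (34958 of 45101). Where a gene had several, the brightest on average represented it. Genes reaching 7.95, the median of all values, on any array were kept. Differences between 2 arrays were counted past 2-fold, with no test, by a calculation tested on simulated data. Named genes were all members with every probe set, any gene of the lists, and the 3 nearest time-course profiles of each member. Alternatives covered the filter, the choice of probe set and the normalization (limma 3.58.1, R 4.3.3); other steps used Python 3.11.15. All 6 members matched RefSeq by Entrez ID. The members and lists were chosen with earlier results of these data known. With 1 array a group, array number limits the precision.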

Additional observations from a re-analysis of the deposited data

How the results depend on the processing

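No paired analysis was possible because each group has 1 array, and leaving out a replicate was impossible for the same reason. Over 8 alternatives for the filter, the probe set and the normalization, 145 of 288 member differences could not or did not change (108 because a filter leaves a kept gene as it is, the rest mainly because a gene has 1 probe set or keeps the same one). Of the other 143, 131 stayed on their side of 2-fold and were counted as the same, 4 dropped below 2-fold, 3 passed it, 5 moved in size, and 0 reversed past 2-fold. The 131 include large shifts of values that stayed past 2-fold. As a mean over probe sets, day 2 minus day 0 of Hspb7 was 1.86, against 2.78 as deposited. Its day 4 minus growth medium was 2.81, against 3.84. Hspb2 at day 0 fell short of 2-fold after quantile and cyclic loess normalization, leaving 0 members 2-fold higher at that step against 1 as deposited. Day 4 minus growth medium of Cryab was 0.73 as a mean over its probe sets, which takes in the dim one, and 0.998 after quantile normalization. Day 4 minus day 0 of Cryab was 1.03 with the probe set of largest range, and day 2 minus day 0 of Hspb8 was 0.61 as a mean over probe sets. The median of the structural partners at day 4 against day 0 was 0.98, and 1.10 after cyclic loess, 1.08 as a mean over probe sets, 1.08 with the largest range and 1.01 after quantile normalization. With shRp58 it was -0.62 under the stricter filter, which keeps fewer genes. Under that filter only Hspb6 and Hspb11 of the other small heat shock proteins remain, and their medians were 0.26 (day 0 minus growth medium), -0.38 (day 2 minus day 0) and -0.69 (day 4 minus day 0), against -0.36, 0.09 and -0.20 for 4 genes; as a mean over probe sets day 2 minus day 0 was -0.40. The heat shock factor median with shRp58 was 0.10 without a filter, which adds Hsf2, against -0.16. The median of heat-shock-induced and cytosolic chaperones at day 0 against growth medium was 0.04, and -0.17 after cyclic loess and -0.15 after quantile normalization. Kept genes 2-fold lower at day 0 numbered 42, and 71 after quantile normalization and 24 under the stricter filter; those 2-fold higher with shRp58 numbered 7, and 12 with the largest range. Except where a smaller or larger gene set is named, the cause was not tested.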
